A study of Mus musculus with 26 samples.

Results

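The genes described here make cholesterol and fatty acids. They are 31 of the 47729 Ensembl mouse genes in the count table, chosen by symbol and divided into a sterol arm of 19 genes and a fatty acid arm of 12. All 31 passed the filter on low counts, which kept 16637 features. RNA was sequenced from 26 libraries of E-A14, a Her2-expressing mouse mammary tumour line. The line was implanted in a mammary fat pad of FVB/N mice aged 6 to 8 weeks. From each tumour, live Her2-positive cells that lacked CD90, CD105 and CD45 were sorted into EpCAM-negative and EpCAM-positive fractions. EpCAM is a surface protein of epithelial cells, and it is lost when cells leave the epithelial state.

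Depleted mice received 100 µg of anti-CD4 and 100 µg of anti-CD8a 2 times a week, starting 2 weeks before implantation. Their tumours were taken on day 20 and gave 6 EpCAM-negative and 6 EpCAM-positive libraries. Control mice received 100 µg each of rat IgG2a and rat IgG2b on the same schedule. Their tumours were taken on day 47 and also gave 6 libraries of each fraction. The remaining 2 libraries came from E-A14 cells grown in culture, and the labels do not say that these were separate cultures. E-A14 is 1 line, both tumour groups carry it in the same host strain, and treatment and day cannot be told apart in any comparison of depleted with control tumours. P-values measure the spread between these libraries, which may be technical for the cultures. Levels are bulk values, so a smaller share of cells that express a gene and less RNA per cell cannot be told apart.

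Cholesterol is built from acetyl-CoA through mevalonate, isoprenoid pyrophosphates, squalene and a series of sterol intermediates. Fatty acids are built from the same acetyl-CoA by carboxylation and chain synthesis, then elongated and desaturated. Transcription of both arms is driven by the SREBP factors. Srebf2 encodes the form that mainly drives sterol genes, and Srebf1 encodes forms that mainly drive fatty acid genes. When membrane sterol is plentiful, INSIG proteins hold the SREBP precursors in the endoplasmic reticulum, and oxysterol-activated LXR receptors raise Srebf1 transcription. Rapidly dividing cells use both arms to make membranes.

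Total counts per library were 17559520 to 25601999 in depleted and 26895429 to 38740143 in control tumours, with no overlap, and 27253363 and 35059744 in the cultures. The part of depth in the results was not tested. CPM are counts of a gene scaled to a common library total, after each total was multiplied by its TMM factor from edgeR. The factors ran from 0.877 in EpCAM-negative control library 4 to 1.145 in culture library 1. Epcam itself averaged 140.4 ± 83.4 CPM in EpCAM-negative depleted and 2437 ± 241 in EpCAM-positive depleted libraries (SD, n = 6 each). It averaged 1.63 ± 0.546 in EpCAM-negative control and 1183 ± 239 in EpCAM-positive control libraries (SD, n = 6 each), and 791 in culture. CPM are compared only within a gene, except in sums over marker lists and in the share of Scd1 and Scd2, which is scaled by exon length. Changes are log2 fold changes ± standard error from edgeR's quasi-likelihood test, and a gene is said to rise or fall where its Benjamini-Hochberg adjusted p over all 16637 features was under 0.05.

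The sterol and fatty acid arms moved differently across the groups. The mean log2 CPM of the 19 sterol genes was 5.08 ± 0.26 in EpCAM-negative depleted, 5.11 ± 0.15 in EpCAM-positive depleted, 5.52 ± 0.21 in EpCAM-negative control and 5.12 ± 0.20 in EpCAM-positive control libraries (SD, n = 6 each), and 6.47 in culture. Every tumour library lay below both cultures, the highest being EpCAM-negative control library 1 at 5.81. The mean of the 12 fatty acid genes was 5.67 ± 0.25 in EpCAM-negative depleted, 6.16 ± 0.16 in EpCAM-positive depleted, 7.22 ± 0.13 in EpCAM-negative control and 7.14 ± 0.05 in EpCAM-positive control libraries, and 7.13 in culture. For this arm it was the depleted tumours that stood apart, and the control tumours lay at 7.05 to 7.47, around the cultures.

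Over both arms, 28 of the 31 genes differed from culture in EpCAM-negative depleted, 27 in EpCAM-positive depleted, 23 in EpCAM-negative control and 25 in EpCAM-positive control cells, where 42.4%, 39.5%, 50.7% and 50.2% of all features tested did. Depleted and control tumours differed for 21 of 31 genes in EpCAM-negative and for 16 in EpCAM-positive cells, where 45.1% and 40.0% of all features did. The fractions differed for 15 genes in depleted and for 12 in control tumours, where 28.5% and 27.9% of all features did, and the difference of the fraction changes passed for 10 genes, where 18.0% of all features did. The members' share in the fraction contrasts was thus closer to the background than their share against culture.

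**Figure D1:**
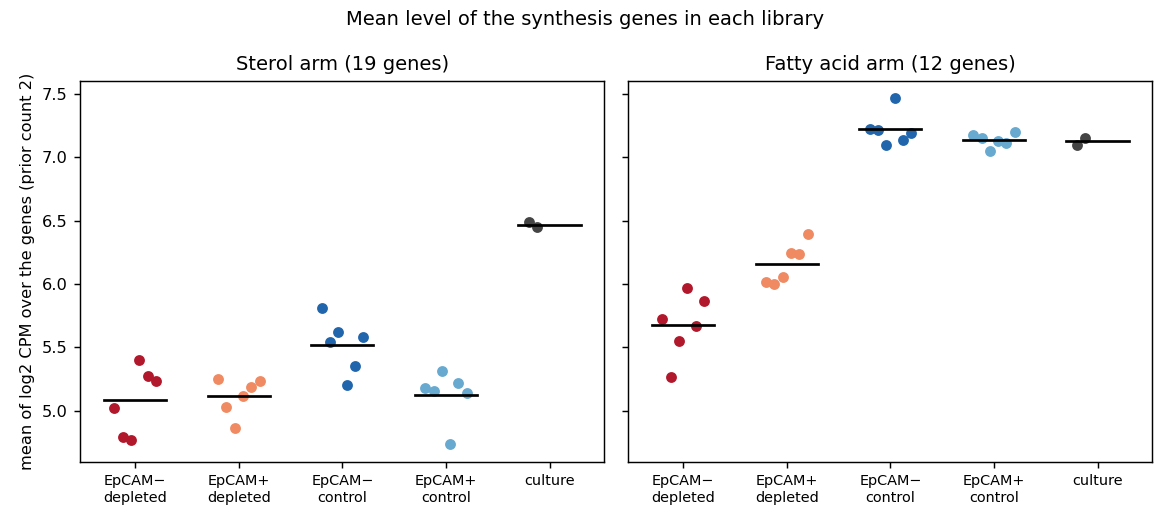
Mean log2 CPM of the sterol arm (left, 19 genes) and the fatty acid arm (right, 12 genes) in each library, with a line at the group mean. The cultures, at 6.45 and 6.49, lie above all tumour libraries in the sterol arm, whereas the fatty acid arm is low in depleted tumours, at 5.27 to 6.39, and at 7.05 or above in the control tumours and the cultures.

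The sterol genes were lower in every tumour group than in culture. In EpCAM-negative depleted cells 17 of 19 fell, in EpCAM-positive depleted cells 18, in EpCAM-negative control cells 15 and in EpCAM-positive control cells 18, and none rose in any of the 4. Among all features tested, 20.6%, 18.6%, 24.2% and 22.4% fell and 21.8%, 20.9%, 26.5% and 27.8% rose in the same comparisons. The median change of the arm was −1.48 in EpCAM-negative depleted, −1.48 in EpCAM-positive depleted, −0.94 in EpCAM-negative control and −1.26 in EpCAM-positive control cells, where the median of all features was 0.09, 0.11, 0.08 and 0.17. The 4 comparisons share the same 2 cultures. The exception in all 4 was Ebp, the sterol isomerase, at 95.0 ± 8.24, 90.6 ± 11.0, 90.5 ± 15.8 and 81.7 ± 8.06 CPM in the tumour groups in the same order and 84.0 CPM in culture. Its adjusted p against culture lay between 0.332 (EpCAM-negative depleted) and 0.832 (EpCAM-positive control).

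Regulatory sequence is shown for 4 members with different roles. Of the 31 genes, 24 had at least 1 promoter entry in RefSeq (GRCm38.p6), from 250 bases before to 50 bases after the start site, namely 15 of the sterol and 9 of the fatty acid arm. The printed letters are those of the gene's own strand, 5′ to 3′, and capitals mark matches on either strand of the CCAAT box (CCAAT, bound by NF-Y, a partner of the SREBPs) and of a sterol regulatory element (TCACNCCAC). Hmgcs1, which makes the HMG-CoA at the head of the mevalonate route, and Mvk, mevalonate kinase, are sterol enzymes. Hmgcs1 is shown because it alone of the sterol genes with an entry has the sterol regulatory element as spelled, and its own change from culture was among the smaller ones of its arm. Insig1 stands for the feedback arm, and Fads2 is the fatty acid gene whose level differed most between depleted and control EpCAM-negative cells. The windows are chr13:119690101-119690400 (plus strand), chr5:114444019-114444318 (plus), chr5:28071162-28071461 (plus) and chr19:10101454-10101753 (minus).
Hmgcs1: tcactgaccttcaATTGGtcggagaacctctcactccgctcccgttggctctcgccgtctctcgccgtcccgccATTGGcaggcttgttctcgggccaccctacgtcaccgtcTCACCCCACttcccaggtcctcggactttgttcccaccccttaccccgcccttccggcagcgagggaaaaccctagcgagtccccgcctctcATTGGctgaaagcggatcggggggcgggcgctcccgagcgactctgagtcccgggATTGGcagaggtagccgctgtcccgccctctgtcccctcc
Mvk: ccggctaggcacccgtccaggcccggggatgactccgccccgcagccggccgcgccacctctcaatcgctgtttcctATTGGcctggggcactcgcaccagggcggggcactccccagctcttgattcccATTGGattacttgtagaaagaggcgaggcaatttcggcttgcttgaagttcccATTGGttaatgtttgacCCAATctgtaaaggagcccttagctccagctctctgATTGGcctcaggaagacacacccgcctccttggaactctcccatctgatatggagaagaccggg
Insig1: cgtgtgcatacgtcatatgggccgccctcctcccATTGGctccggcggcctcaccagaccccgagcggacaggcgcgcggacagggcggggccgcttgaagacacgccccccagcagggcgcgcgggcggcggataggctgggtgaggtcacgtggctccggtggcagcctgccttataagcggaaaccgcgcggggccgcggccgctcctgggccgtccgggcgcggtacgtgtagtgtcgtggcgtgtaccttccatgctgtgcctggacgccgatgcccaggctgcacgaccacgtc
Fads2: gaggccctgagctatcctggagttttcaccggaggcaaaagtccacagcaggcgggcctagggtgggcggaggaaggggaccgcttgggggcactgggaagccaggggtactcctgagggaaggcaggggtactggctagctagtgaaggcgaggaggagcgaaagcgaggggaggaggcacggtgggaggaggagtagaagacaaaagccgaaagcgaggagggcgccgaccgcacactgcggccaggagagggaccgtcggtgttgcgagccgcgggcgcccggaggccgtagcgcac

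The Hmgcs1 window holds 4 CCAAT boxes and 1 sterol regulatory element, 137 to 129 bases before the RefSeq start site. On the same strand, the nearest GENCODE transcript start lay 28 bases from the RefSeq start for Hmgcs1, 0 for Mvk, −49 for Insig1 and −243 for Fads2, where negative values are upstream, so the windows and distances hold for the RefSeq starts alone. The Mvk window holds 5 CCAAT boxes, the Insig1 window 1 and the Fads2 window 0. Over the arm, 15 of 15 sterol genes with an entry had a CCAAT box in at least 1 window, against 6 of 9 fatty acid genes and 41.1% of the 27025 genes in the table. The GC box GGGCGG was present for 14 of 15 sterol genes, 5 of 9 fatty acid genes and 38.2% of all genes, and the E-box CACGTG for 4, 1 and 8.09%. The sterol regulatory element as spelled was present for 1 of 15 sterol and 0 of 9 fatty acid genes and for 1.44% of all genes. The marked matches of the 2 motifs do not overlap in these windows. These are matches of letters in a fixed window and say nothing about binding.

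The early mevalonate enzymes differed in how far they fell below culture. Hmgcs1 had 65.2, 102 and 133 CPM (lowest, median and highest) in EpCAM-negative depleted, 55.9, 79.0 and 98.4 in EpCAM-positive depleted, 76.5, 101 and 149.8 in EpCAM-negative control and 51.0, 84.2 and 104 in EpCAM-positive control cells, against 127 and 139.8 CPM in culture. Both EpCAM-negative groups overlapped the cultures and both EpCAM-positive groups lay below them. Its change from culture was −0.38 ± 0.24, adjusted p = 0.219 in EpCAM-negative depleted and −0.76 ± 0.24, adjusted p = 0.0128 in EpCAM-positive depleted cells, and −0.31 ± 0.24, adjusted p = 0.304 in EpCAM-negative control and −0.72 ± 0.24, adjusted p = 0.0151 in EpCAM-positive control cells. Both calls were lost without either culture, with an adjusted p of up to 0.0962 in EpCAM-positive depleted and 0.109 in EpCAM-positive control cells. Mvk had 7.05, 10.9 and 11.9 CPM in EpCAM-negative depleted, 5.35, 8.33 and 10.2 in EpCAM-positive depleted, 12.4, 18.5 and 22.8 in EpCAM-negative control and 8.94, 12.9 and 16.2 in EpCAM-positive control cells, against 29.6 and 26.7 in culture. All 24 tumour libraries were below both cultures for Mvk, and the call in EpCAM-negative control cells, −0.63 ± 0.23, was lost without either culture (adjusted p up to 0.169). Pmvk and Mvd, which phosphorylate and decarboxylate mevalonate products, fell in all 4 comparisons, at −0.88 ± 0.19 to −1.48 ± 0.19 for Pmvk and −1.08 ± 0.26 to −1.94 ± 0.25 for Mvd.

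The farnesyl and squalene steps were also lower in every tumour group. Fdps, which makes farnesyl pyrophosphate, fell, at −2.32 ± 0.32 in EpCAM-negative depleted and −1.86 ± 0.32 in EpCAM-negative control cells, but its level was low, at 4.12 ± 1.58 and 5.64 ± 1.85 CPM against 20.5 CPM in culture. Of its 50-base windows, 26.2% also occur in another gene, mostly the locus Gm43738, so its reads are uncertain, as are those of Idi1 (25.3%), Fdft1 (26.5%) and Hmgcs1 (11.6%). Sqle, the squalene epoxidase, had 129.9, 193 and 261 CPM in EpCAM-negative depleted, 147, 165 and 221 in EpCAM-positive depleted, 197, 269 and 381 in EpCAM-negative control and 149, 197 and 237 in EpCAM-positive control cells, against 466 and 466 in culture. No tumour library reached the cultures for Sqle, and the EpCAM-negative control libraries came closest. The change was −1.25 ± 0.21, adjusted p = 2.44e-05 in EpCAM-negative depleted and −1.42 ± 0.21, adjusted p = 4.68e-06 in EpCAM-positive depleted cells. It was −0.77 ± 0.21, adjusted p = 0.00373 in EpCAM-negative control and −1.26 ± 0.21, adjusted p = 1.57e-05 in EpCAM-positive control cells. Lss, which closes squalene epoxide into lanosterol, was lower, at −1.86 ± 0.18, −1.46 ± 0.18, −1.19 ± 0.19 and −1.22 ± 0.19 in the 4 groups in the same order.

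Among the late sterol enzymes Dhcr7, which makes cholesterol in the last reduction of one branch, had the smallest p in 3 of the 4 comparisons with culture. It had 78.8, 91.0 and 128 CPM in EpCAM-negative depleted, 88.1, 93.8 and 102 in EpCAM-positive depleted, 84.0, 101 and 121 in EpCAM-negative control and 92.8, 105 and 111 in EpCAM-positive control cells, against 268 and 259 in culture. The fractions and the treatments overlapped, and all tumour libraries lay below culture. The change from culture was −1.48 ± 0.13, adjusted p = 1.11e-09 in EpCAM-negative depleted and −1.49 ± 0.13, adjusted p = 1.33e-09 in EpCAM-positive depleted cells, and −1.37 ± 0.13, adjusted p = 1.94e-09 in EpCAM-negative control and −1.35 ± 0.13, adjusted p = 2.79e-09 in EpCAM-positive control cells. Dhcr7 passed in no comparison among the tumour groups. Msmo1 and Sc5d, a methyl sterol oxidase and a sterol desaturase, also fell in all 4, between −1.35 ± 0.18 and −1.74 ± 0.18 for Msmo1 and between −1.01 ± 0.15 and −1.56 ± 0.14 for Sc5d. Cyp51, the lanosterol demethylase, averaged 112 ± 31.9 CPM in EpCAM-negative depleted, 102 ± 18.1 in EpCAM-positive depleted, 167 ± 26.5 in EpCAM-negative control and 98.5 ± 15.5 in EpCAM-positive control cells, and 320.0 in culture. Nsdhl and Hsd17b7, which act in the same demethylation sequence, fell least among the enzymes of this stretch apart from Ebp, at −0.64 ± 0.14 and −0.51 ± 0.20 in EpCAM-negative control cells, and the Hsd17b7 call there was lost without either culture or without EpCAM-negative control library 4 or 5 (adjusted p up to 0.138). Stard4, which carries sterol between membranes, fell in all 4 and with the largest fold in EpCAM-positive control cells, −2.78 ± 0.36, adjusted p = 4.72e-07, with 2.54, 5.37 and 5.70 CPM against 32.7 and 32.9 in culture.

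**Figure D2:**
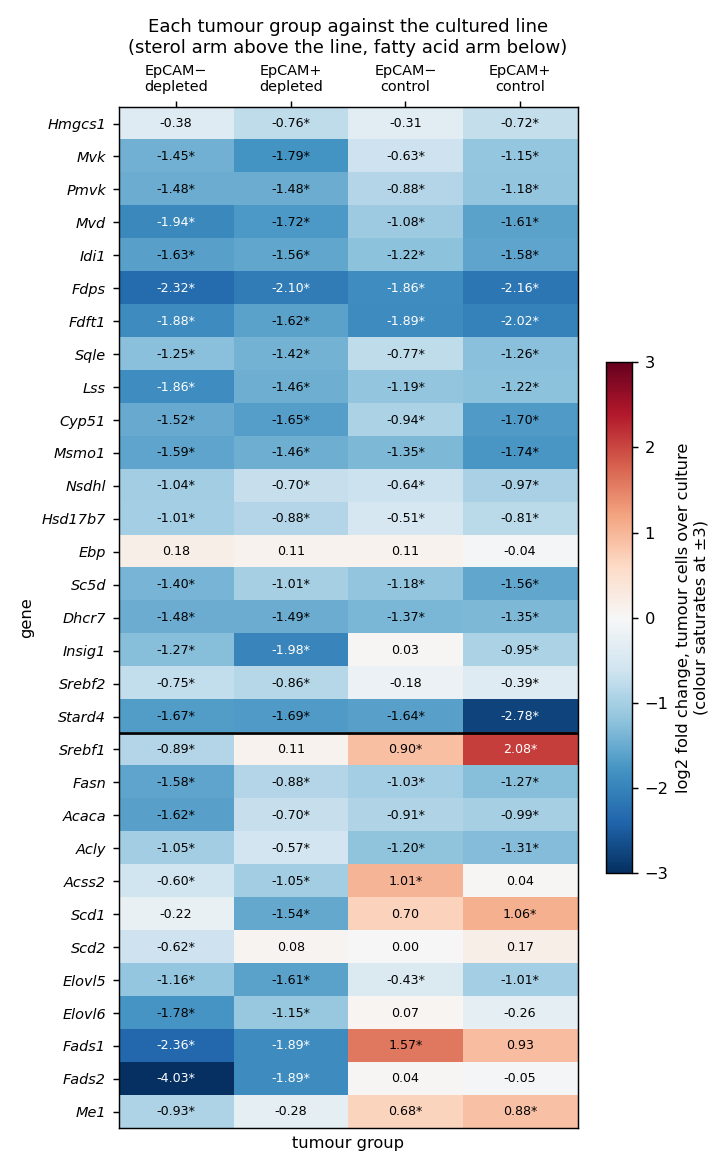
Log2 fold change of each of the 31 genes in each tumour group over the 2 cultures, from edgeR's quasi-likelihood fit. The sterol genes are negative in nearly every column except for Ebp, while the fatty acid genes are split in control tumours, where Srebf1 reaches 2.08 in EpCAM-positive cells and Acly −1.31.

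The regulators did not move with their arms in every group. Srebf2 (ENSMUSG00000022463) had 103, 137 and 158 CPM in EpCAM-negative depleted, 96.8, 119 and 143 in EpCAM-positive depleted, 177, 188 and 247 in EpCAM-negative control and 132, 175 and 187 in EpCAM-positive control cells, against 221 and 223 in culture. All depleted libraries lay below the cultures. Of the control libraries only EpCAM-negative control library 1, at 246.6 CPM, lay above both, and the others, at 193 CPM or less, lay below them. Against culture Srebf2 fell, at −0.75 ± 0.15 in EpCAM-negative depleted and −0.86 ± 0.15 in EpCAM-positive depleted cells. Its change was −0.18 ± 0.15, adjusted p = 0.336 in EpCAM-negative control and −0.39 ± 0.15, adjusted p = 0.0363 in EpCAM-positive control cells, and the second of these calls was lost without EpCAM-positive control library 6 or either culture (adjusted p up to 0.143). In depleted against control tumours it fell, at −0.57 ± 0.11, adjusted p = 0.000138 in EpCAM-negative and −0.48 ± 0.11, adjusted p = 0.00109 in EpCAM-positive cells.

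Srebf1 (ENSMUSG00000020538) spanned a wider range. It had 95.6, 97.0 and 108 CPM in EpCAM-negative depleted, 141, 203 and 243 in EpCAM-positive depleted, 238, 324 and 537 in EpCAM-negative control and 612, 784 and 954 in EpCAM-positive control cells, against 199 and 170.1 in culture. The EpCAM-negative libraries lay below all EpCAM-positive ones within each treatment, and the depleted libraries below all control ones within each fraction. Srebf1 was 3.44-fold lower in depleted than control EpCAM-negative cells (−1.78 ± 0.16, adjusted p = 6.39e-10) and 3.91-fold lower in EpCAM-positive cells (−1.97 ± 0.16, adjusted p = 1.86e-10). Against culture it fell in EpCAM-negative depleted cells (−0.89 ± 0.20, adjusted p = 0.000924) and did not pass in EpCAM-positive depleted cells (0.11 ± 0.21, adjusted p = 0.718). It rose in EpCAM-negative control (0.90 ± 0.22, adjusted p = 0.00159) and EpCAM-positive control cells (2.08 ± 0.24, adjusted p = 7.82e-08), and the first of these 2 calls was lost without culture library 2 (adjusted p = 0.0526). The counts do not separate the 2 Srebf1 transcript forms.

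Insig1 (ENSMUSG00000045294), the SREBP-retaining protein that is itself an SREBP target, was the sterol member with the smallest p in depleted against control tumours of either fraction. It had 34.7, 48.1 and 60.8 CPM in EpCAM-negative depleted and 84.6, 123 and 137 in EpCAM-negative control cells. It had 21.5, 29.0 and 35.6 CPM in EpCAM-positive depleted and 47.1, 57.4 and 78.5 in EpCAM-positive control cells, and 115 and 116 in culture. The depleted libraries lay below the control ones in both fractions without overlap. Insig1 fell, at −1.30 ± 0.16, adjusted p = 1.32e-07 in EpCAM-negative and −1.03 ± 0.16, adjusted p = 7.18e-06 in EpCAM-positive cells. It was also the sterol member that was higher in EpCAM-negative than EpCAM-positive cells in both treatments, by 0.70 ± 0.16, adjusted p = 0.00102 in depleted and 0.98 ± 0.15, adjusted p = 2.04e-05 in control tumours. In EpCAM-negative control cells it did not differ detectably from culture (0.03 ± 0.21, adjusted p = 0.927).

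**Figure D3:**
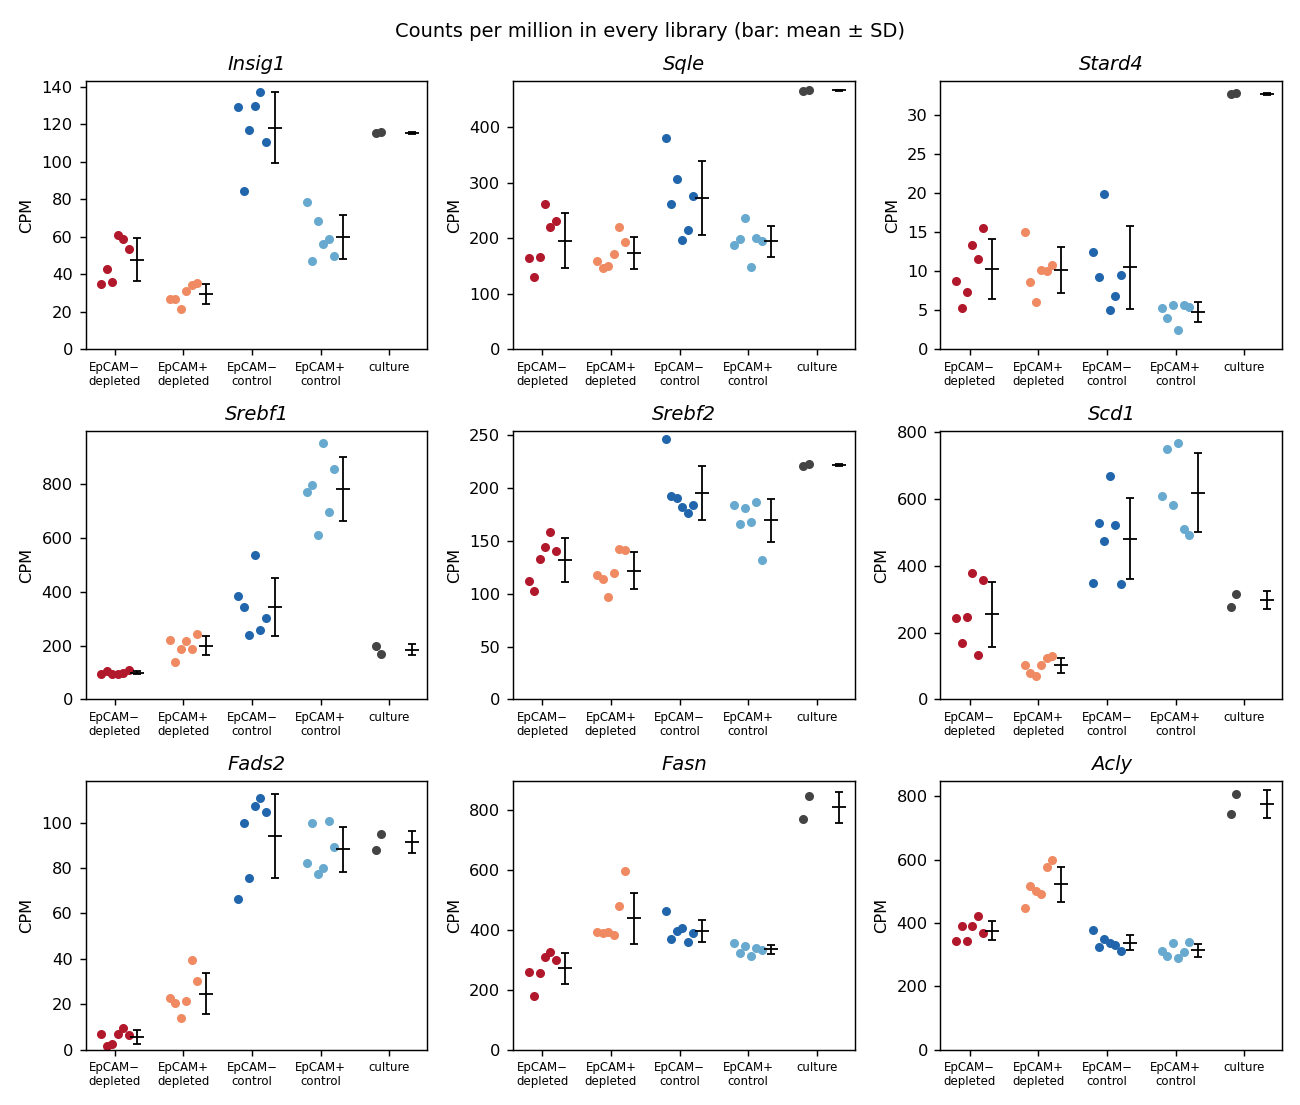
CPM of selected genes of both arms in every library, with the mean and SD of each group. Depleted libraries lie below control libraries for Srebf1, Insig1 and Fads2 in both fractions, and Scd1 is lowest in EpCAM-positive depleted cells, at 102 CPM on average.

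T-cell depletion with its earlier day went with lower fatty acid synthesis genes in both fractions. In EpCAM-negative cells 11 of 12 fell and none rose, where 23.2% of all features fell and 21.9% rose. In EpCAM-positive cells 8 of 12 fell and 2 rose, where 22.4% of all features fell and 17.6% rose. The median change was −1.26 in the EpCAM-negative and −0.99 in the EpCAM-positive fraction, and that of all features was 0.03 and −0.02. In EpCAM-negative cells 10 of the 11 that fell had every depleted library below every control library. The share of all features that separate in this way was not counted, so this number has no background.

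In EpCAM-negative cells the largest folds belonged to the desaturases that make long polyunsaturated fatty acids, while in EpCAM-positive cells Fads1 was followed by Scd1 and Srebf1, ahead of Fads2. Fads2 (ENSMUSG00000024665), which opens that route, had 1.61, 6.48 and 9.49 CPM in EpCAM-negative depleted and 66.3, 102 and 111 in EpCAM-negative control cells. In EpCAM-positive cells it had 13.9, 22.1 and 39.6 CPM in depleted and 77.4, 85.7 and 101 in control tumours, and the cultures had 88.0 and 95.0. The control tumours surrounded the cultures, and the depleted tumours of both fractions lay below them. Fads2 fell 16.8-fold in EpCAM-negative (−4.07 ± 0.30, adjusted p = 3.17e-11) and 3.57-fold in EpCAM-positive cells (−1.84 ± 0.27, adjusted p = 4.33e-06). Fads1 (ENSMUSG00000010663), which acts later in the same route, had 1.53, 3.05 and 5.68 CPM in EpCAM-negative depleted and 32.6, 54.0 and 63.3 in EpCAM-negative control cells. It had 2.62, 4.48 and 6.90 CPM in EpCAM-positive depleted and 22.2, 31.7 and 45.7 in EpCAM-positive control cells, and 17.2 and 16.7 in culture. Fads1 fell 15.3-fold in EpCAM-negative (−3.94 ± 0.30, adjusted p = 6.27e-11) and 7.04-fold in EpCAM-positive cells (−2.82 ± 0.29, adjusted p = 1.52e-08).

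Scd1 and Scd2, which place the double bond that makes oleate, differed from each other. Scd1 had 132, 246 and 378 CPM in EpCAM-negative depleted and 346, 497 and 667 in EpCAM-negative control cells, which overlapped. In EpCAM-positive cells it had 71.3, 104 and 129 CPM in depleted and 489.9, 595 and 767 in control tumours, far apart, and the cultures had 277 and 316. Its change was −0.92 ± 0.21, adjusted p = 0.000936 in EpCAM-negative and −2.60 ± 0.23, adjusted p = 8.69e-10 in EpCAM-positive cells. Scd2 had 484, 608 and 712 CPM in EpCAM-negative depleted and 811, 938 and 1051 in EpCAM-negative control cells, against 797, 996 and 1119 in EpCAM-positive depleted and 928, 1039 and 1205 in EpCAM-positive control cells. It fell in EpCAM-negative cells (−0.62 ± 0.10, adjusted p = 9.83e-06) and its change in EpCAM-positive cells was −0.10 ± 0.10, adjusted p = 0.466. Per exon length, Scd1 made up 30.9 ± 6.35% of the summed Scd1 and Scd2 level in EpCAM-negative depleted, 10.3 ± 1.48% in EpCAM-positive depleted, 36.1 ± 5.66% in EpCAM-negative control and 39.4 ± 3.69% in EpCAM-positive control cells (SD, n = 6 each), and 26.1% in culture. Of the 50-base windows, 4.56% for Scd1 and 3.97% for Scd2 also occur in another gene.

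The elongases fell in both fractions. Elovl6, which lengthens palmitate, had 18.2, 20.5 and 27.0 CPM in EpCAM-negative depleted and 55.9, 78.9 and 97.2 in EpCAM-negative control cells, and 28.8, 33.4 and 38.6 in EpCAM-positive depleted and 48.5, 61.3 and 78.9 in EpCAM-positive control cells. The depleted libraries lay below the control ones in each fraction, with changes of −1.85 ± 0.13, adjusted p = 1.89e-11 in EpCAM-negative and −0.89 ± 0.13, adjusted p = 4.01e-06 in EpCAM-positive cells. Elovl5, which lengthens polyunsaturated chains, fell, at −0.73 ± 0.10 and −0.60 ± 0.10 in the same fractions. Me1, the malic enzyme that supplies NADPH, averaged 51.4 ± 10.1 CPM in EpCAM-negative depleted and 157 ± 41.8 in EpCAM-negative control cells, and 80.4 ± 7.84 in EpCAM-positive depleted and 179.7 ± 24.2 in EpCAM-positive control cells. Its libraries did not overlap either, with changes of −1.61 ± 0.14 and −1.16 ± 0.14, although 28.3% of its 50-base windows also occur elsewhere, mostly in Gm7049. Acss2, which makes acetyl-CoA from acetate, fell, at −1.62 ± 0.15, adjusted p = 2.93e-09 in EpCAM-negative and −1.09 ± 0.15, adjusted p = 2.47e-06 in EpCAM-positive cells.

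The central chain-building enzymes went the other way in EpCAM-positive cells. Fasn, the fatty acid synthase, had 383, 392 and 594 CPM in EpCAM-positive depleted and 312, 336 and 355 in EpCAM-positive control cells, and 178, 278 and 325 in EpCAM-negative depleted and 357, 392 and 461 in EpCAM-negative control cells. The groups did not overlap in either fraction, with the depleted libraries above the control ones in EpCAM-positive and below them in EpCAM-negative cells. Fasn rose by 0.39 ± 0.12, adjusted p = 0.00842 in EpCAM-positive and fell, at −0.55 ± 0.12, adjusted p = 0.000354, in EpCAM-negative cells. Acly, which cuts citrate into acetyl-CoA, had 447, 508 and 599 CPM in EpCAM-positive depleted and 288, 309.7 and 341 in EpCAM-positive control cells, and rose by 0.74 ± 0.07, adjusted p = 7.48e-09. In EpCAM-negative cells it had 342, 378 and 423 CPM in depleted and 312, 334 and 379 in control tumours, which overlapped (0.15 ± 0.07, adjusted p = 0.0856). Acaca, which makes the malonyl-CoA used by the synthase, fell, at −0.71 ± 0.17, adjusted p = 0.00109 in EpCAM-negative cells and changed by 0.29 ± 0.17, adjusted p = 0.172 in EpCAM-positive cells, and 30.4% of its 50-base windows also occur in another gene, mostly Gm5182.

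In the sterol arm the depleted and control tumours differed less. In EpCAM-negative cells 10 of 19 fell and none rose, where 23.2% of all features fell and 21.9% rose, with a median change of −0.46. In EpCAM-positive cells 3 fell and 3 rose, with a median of −0.05, and both counts are below the shares of all features, of which 22.4% fell and 17.6% rose. With scaling by library totals alone, 17 of the 31 genes of both arms fell and 2 rose in EpCAM-negative cells, in place of 21 and 0, and the 2 were Acly and Ebp. After Insig1 and Srebf2, Mvk fell in both fractions, at −0.83 ± 0.17, adjusted p = 0.000258 in EpCAM-negative and −0.64 ± 0.17, adjusted p = 0.00401 in EpCAM-positive cells. The other 7 that fell in EpCAM-negative cells were Lss, Mvd, Pmvk, Nsdhl, Cyp51, Hsd17b7 and Sqle, between −0.86 ± 0.20 (Mvd) and −0.39 ± 0.10 (Nsdhl). The Sqle change, −0.48 ± 0.16, adjusted p = 0.0146, was lost without EpCAM-negative control library 1 (adjusted p = 0.0587). Hmgcs1 changed by −0.07 ± 0.18, adjusted p = 0.774 in EpCAM-negative and −0.05 ± 0.18, adjusted p = 0.862 in EpCAM-positive cells, and Sqle by −0.17 ± 0.16, adjusted p = 0.436 in EpCAM-positive cells.

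The 3 sterol genes that rose in EpCAM-positive depleted cells, a number no larger than the background gives, were Sc5d, Stard4 and Nsdhl. Sc5d had 56.8, 63.5 and 72.2 CPM in EpCAM-positive depleted and 37.8, 44.9 and 51.0 in EpCAM-positive control cells, without overlap, and rose by 0.56 ± 0.11, adjusted p = 0.000217. Stard4 had 6.01, 10.2 and 15.1 CPM in EpCAM-positive depleted and 2.54, 5.37 and 5.70 in EpCAM-positive control cells, also without overlap, and rose by 1.09 ± 0.29, adjusted p = 0.00394. Nsdhl rose by 0.26 ± 0.10, adjusted p = 0.0454, a call that was lost without any 1 of 13 of the 26 libraries (adjusted p up to 0.12), among them EpCAM-positive depleted libraries 1, 3 and 4.

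Between the sorted fractions of control tumours, sterol genes that differed were higher in EpCAM-negative cells. Of the 19 genes 9 rose and none fell, where 13.3% of all features rose and 14.5% fell, and the median change was 0.36 against −0.01 over all features. With scaling by library totals alone, 5 of the 31 genes of both arms rose and 2 fell, in place of 11 and 1, and the calls of Mvk, Mvd, Sqle, Msmo1, Nsdhl and Sc5d were lost. The main fit treats the fractions as unpaired, since no label says that a replicate number marks a tumour. With a replicate block, given at the end, more of the 31 genes were called here. Insig1 and Cyp51 led, and for both every EpCAM-negative library lay above every EpCAM-positive one. Cyp51 had 127, 167 and 206 CPM in EpCAM-negative and 71.3, 102 and 116 in EpCAM-positive control cells (0.76 ± 0.16, adjusted p = 0.00065). Stard4 had 5.10, 9.36 and 20.0 CPM in EpCAM-negative and 2.54, 5.37 and 5.70 in EpCAM-positive control cells, which overlapped (1.14 ± 0.29, adjusted p = 0.00377). Sqle had 197, 269 and 381 CPM in EpCAM-negative and 149, 197 and 237 in EpCAM-positive control cells, which also overlapped (0.49 ± 0.16, adjusted p = 0.0221). Hmgcs1, at 0.40 ± 0.18, adjusted p = 0.0913, and Srebf2, at 0.20 ± 0.11, adjusted p = 0.178, did not pass.

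In this unpaired fit, 6 of these 9 calls lay close enough to the threshold to be lost when 1 library was left out. Over the 26 omissions the log2 fold change stayed at 0.44 to 0.61 for Mvk, 0.45 to 0.62 for Mvd, 0.35 to 0.57 for Sqle, 0.24 to 0.44 for Msmo1, 0.27 to 0.36 for Nsdhl and 0.28 to 0.42 for Sc5d. Without EpCAM-negative control library 1, the number of genes of both arms that rose was 6 in place of 11. Mvd, Sqle, Msmo1, Nsdhl and Sc5d lost their calls, Sc5d with an adjusted p of 0.0569. Sqle was lost also without EpCAM-positive control library 4, with an adjusted p of up to 0.0943 over both omissions. Mvk was lost without EpCAM-positive control library 4 or EpCAM-negative control library 6 (adjusted p up to 0.0562). Mvd was lost without any 1 of 14 libraries, with an adjusted p of up to 0.103. Msmo1 was lost without EpCAM-negative control library 1, 2 or 6 or EpCAM-positive control library 4, 5 or 6 (up to 0.168). Nsdhl was lost without EpCAM-negative control library 1, 2 or 6 or EpCAM-positive control library 5 or 6 (up to 0.0699). EpCAM-negative control library 1 was the highest of its group for 10 of the 19 sterol genes. Control library 4 was the lowest for 13 of 19 in the EpCAM-negative and for 14 of 19 in the EpCAM-positive fraction, and EpCAM-positive depleted library 3 for 11 of 19.

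In depleted tumours few sterol genes differed between the fractions, and most fatty acid genes were lower in EpCAM-negative cells. Of the 19 sterol genes 1 rose and 3 fell, where 14.2% of all features rose and 14.3% fell, with a median change of 0.00. Insig1 was the one that rose, and Sc5d (−0.40 ± 0.11, adjusted p = 0.00714), Nsdhl (−0.34 ± 0.10, adjusted p = 0.0165) and Lss (−0.40 ± 0.14, adjusted p = 0.0332) fell, all with overlapping libraries. Nsdhl was lost without EpCAM-positive depleted library 1 (adjusted p = 0.0505). Lss was lost without EpCAM-positive depleted library 2, 4 or 6 or EpCAM-negative depleted library 1, 2 or 3 (up to 0.0816). Hmgcs1 (0.38 ± 0.18, adjusted p = 0.117), Sqle (0.17 ± 0.16, adjusted p = 0.477) and Srebf2 (0.11 ± 0.11, adjusted p = 0.503) did not pass.

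Of the 12 fatty acid genes, 8 fell and 3 rose in EpCAM-negative depleted cells, where 14.3% of all features fell and 14.2% rose, with a median change of −0.64 against 0.01 over all features. For each of the 8, every EpCAM-negative library lay below every EpCAM-positive one, and the share of all features that separate so was not counted. Fads2, with 1.61, 6.48 and 9.49 CPM in EpCAM-negative and 13.9, 22.1 and 39.6 in EpCAM-positive cells, was 4.42-fold lower (−2.14 ± 0.29, adjusted p = 1.68e-06). Scd2 (−0.70 ± 0.10, adjusted p = 3.53e-06), Acly (−0.47 ± 0.07, adjusted p = 1.09e-05) and Fasn (−0.70 ± 0.12, adjusted p = 3.95e-05) were among them. Scd1 rose, with 132, 246 and 378 CPM in EpCAM-negative against 71.3, 104 and 129 in EpCAM-positive depleted cells and no overlap (1.32 ± 0.22, adjusted p = 3.05e-05). The other 2 that rose were Elovl5 (0.45 ± 0.10, adjusted p = 0.00116) and Acss2 (0.45 ± 0.15, adjusted p = 0.0294), both with overlapping libraries. The Acss2 call was lost without EpCAM-positive depleted library 1, 2 or 6 or EpCAM-negative depleted library 2, 3 or 4 (adjusted p up to 0.0929).

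In control tumours 2 of the 12 fatty acid genes rose and 1 fell in EpCAM-negative cells, counts near the 13.3% of all features that rose and no higher than the 14.5% that fell. Acss2 had 23.9, 28.7 and 35.2 CPM in EpCAM-negative and 12.3, 15.0 and 18.7 in EpCAM-positive control cells and rose (0.97 ± 0.15, adjusted p = 1.6e-05), as did Elovl5 (0.58 ± 0.10, adjusted p = 7.14e-05), both without overlap. Srebf1 fell in both treatments, at −1.0003 ± 0.15, adjusted p = 1.15e-05 in depleted and −1.18 ± 0.15, adjusted p = 1.21e-06 in control tumours, and the difference between the 2 changes was 0.18 ± 0.21, adjusted p = 0.624. Fasn (0.25 ± 0.12, adjusted p = 0.12), Scd1 (−0.36 ± 0.21, adjusted p = 0.222), Scd2 (−0.17 ± 0.10, adjusted p = 0.201) and Fads2 (0.09 ± 0.26, adjusted p = 0.839) did not pass in control tumours, although all 6 EpCAM-negative libraries lay above the EpCAM-positive ones for Fasn.

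The difference between the fraction changes, depleted minus control, was tested as 1 term in the same fit. It was negative for 9 of the 31 genes and positive for 1, where 8.69% of all features were negative and 9.33% positive by the same test. Among fatty acid genes 7 were negative and 1 positive, and among sterol genes 2 were negative. The sterol pair was Sc5d (−0.78 ± 0.16, adjusted p = 0.000789) and Nsdhl (−0.66 ± 0.15, adjusted p = 0.00231), both lower in EpCAM-negative cells of depleted and higher in those of control tumours. The median difference was −0.43 in the sterol and −0.56 in the fatty acid arm, against 0.05 over all features. Fads2 (−2.24 ± 0.38, adjusted p = 0.000143), Acly (−0.58 ± 0.10, adjusted p = 0.000174) and Fasn (−0.94 ± 0.16, adjusted p = 0.000176) had the smallest p among the negative ones, and Elovl6 (−0.96 ± 0.18), Acaca (−1.002 ± 0.24), Scd2 (−0.53 ± 0.14) and Fads1 (−1.12 ± 0.39) followed. The positive one was Scd1 (1.68 ± 0.30, adjusted p = 0.000246). The Fads1 call (adjusted p = 0.0477) was lost without any 1 of 18 libraries, with an adjusted p of up to 0.0966. In the sterol arm the difference was −0.28 ± 0.22, adjusted p = 0.431 for Insig1 and −0.32 ± 0.22, adjusted p = 0.375 for Sqle. It was −0.09 ± 0.16, adjusted p = 0.758 for Srebf2 and −0.02 ± 0.25, adjusted p = 0.975 for Hmgcs1. Sterol genes nearer the threshold were Cyp51 (−0.63, adjusted p = 0.0525), Stard4 (−1.12, 0.0573), Mvd (−0.75, 0.0608) and Msmo1 (−0.52, 0.066). Each of them passed without any 1 of 4 libraries, or of 5 for Cyp51. This fit treats the fractions as unpaired, and with a replicate block, given at the end, more of the 31 genes had a negative difference.

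**Figure D4:**
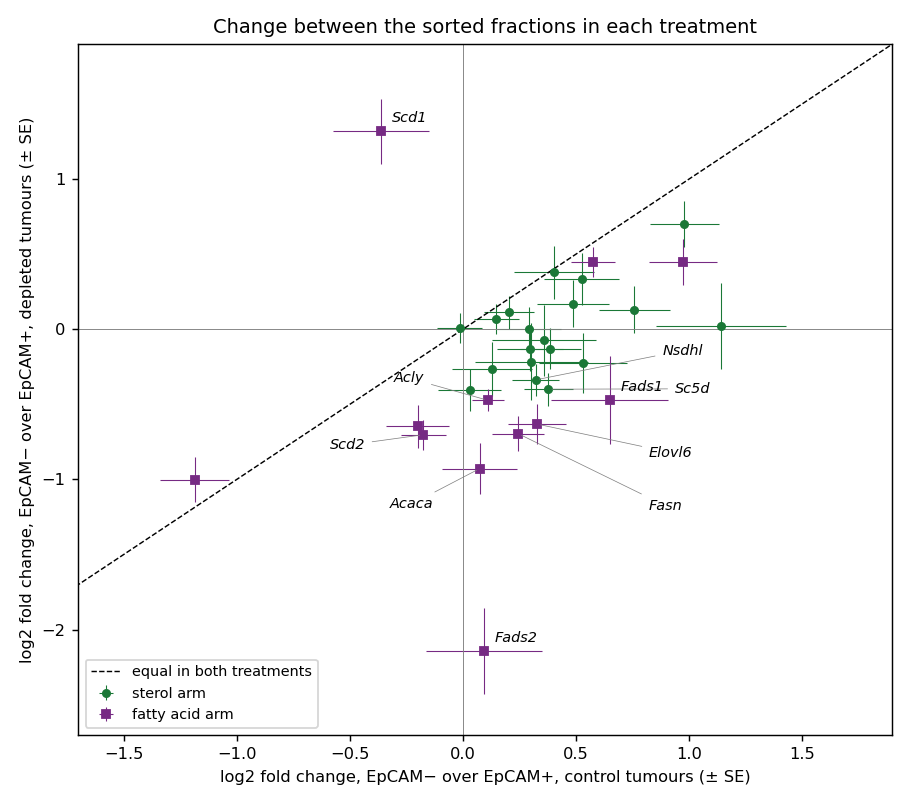
Log2 fold change of EpCAM-negative over EpCAM-positive cells in depleted tumours (vertical) against that in control tumours (horizontal) for the 31 genes, with standard errors and a dashed line of equal change. The 10 named genes differ between treatments by the test of the difference, and Scd1 is the one above the line (difference 1.68) while Fads2 lies farthest below it (−2.24).

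Against culture, the fatty acid arm fell in depleted tumours and was divided in control tumours. In EpCAM-negative depleted cells 11 of 12 fell and in EpCAM-positive depleted cells 9, where 20.6% and 18.6% of all features fell, and none rose. In EpCAM-negative control cells 4 fell and 4 rose, where 24.2% of all features fell and 26.5% rose. In EpCAM-positive control cells 4 fell and 3 rose, where 22.4% fell and 27.8% rose, so that the counts in control tumours lay near the background. Acly had 342, 378 and 423 CPM in EpCAM-negative depleted, 447, 508 and 599 in EpCAM-positive depleted, 312, 334 and 379 in EpCAM-negative control and 288, 309.7 and 341 in EpCAM-positive control cells, against 745 and 808 in culture. Every tumour library was below both cultures, with changes of −1.05 ± 0.10, −0.57 ± 0.10, −1.20 ± 0.10 and −1.31 ± 0.10 in the same order. Fasn, with 769.5 and 845 CPM in culture, also fell in all 4, at −1.58 ± 0.15, −0.88 ± 0.16, −1.03 ± 0.16 and −1.27 ± 0.15. Acaca and Elovl5 fell in all 4 as well, and the Acaca call in EpCAM-positive depleted cells and the Elovl5 call in EpCAM-negative control cells were lost without culture library 2 (adjusted p = 0.156 and 0.12).

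The genes that rose above culture in control tumours did not include Acly, Acaca or Fasn. In EpCAM-negative control cells they were Acss2 (1.01 ± 0.22, adjusted p = 0.000439), Srebf1, Fads1 (1.57 ± 0.41, adjusted p = 0.002) and Me1 (0.68 ± 0.21, adjusted p = 0.00796). In EpCAM-positive control cells they were Srebf1, Me1 (0.88 ± 0.21, adjusted p = 0.00106) and Scd1 (1.06 ± 0.32, adjusted p = 0.00742). The Me1 call in EpCAM-negative control cells was lost without either culture (adjusted p up to 0.0752), and the Scd1 call in EpCAM-positive control cells without culture library 1 (0.0898). Scd1 in EpCAM-negative control cells was 0.70 ± 0.31, adjusted p = 0.0652. Fads1 in EpCAM-positive control cells was 0.93, adjusted p = 0.0505, and it passed without any 1 of 7 libraries. Fads2 changed by 0.04 ± 0.36, adjusted p = 0.948 in EpCAM-negative control and −0.05 ± 0.36, adjusted p = 0.916 in EpCAM-positive control cells, against −4.03 ± 0.35, adjusted p = 8.07e-10 in EpCAM-negative depleted and −1.89 ± 0.34, adjusted p = 6.75e-05 in EpCAM-positive depleted cells. Scd2 changed by 0.00 ± 0.14, adjusted p = 1 in EpCAM-negative control and 0.17 ± 0.14, adjusted p = 0.311 in EpCAM-positive control cells.

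Genes around the pathway were counted from lists of related function. Their counts are read against all features tested, of which 21.8%, 20.9%, 26.5% and 27.8% rose and 20.6%, 18.6%, 24.2% and 22.4% fell against culture in EpCAM-negative depleted, EpCAM-positive depleted, EpCAM-negative control and EpCAM-positive control cells. In depleted against control tumours 21.9% rose and 23.2% fell in EpCAM-negative cells, and 17.6% rose and 22.4% fell in EpCAM-positive cells. The machinery that moves and cleaves SREBPs was read from 11 genes. Against culture 3 of these rose and none fell in EpCAM-negative depleted, 3 rose and 1 fell in EpCAM-positive depleted, 5 rose and 2 fell in EpCAM-negative control and 4 rose and 3 fell in EpCAM-positive control cells, and the numbers that rose in depleted tumours lay near the background. In depleted against control tumours 4 rose and 4 fell in EpCAM-negative and 3 rose and 3 fell in EpCAM-positive cells. Erlin2, part of the complex that degrades INSIG-bound proteins, rose in both (0.40 ± 0.07 and 0.62 ± 0.07), and Mbtps1, the first SREBP protease, fell in EpCAM-negative cells (−0.32 ± 0.07, adjusted p = 0.000726).

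Of 6 further sterol enzymes, 5 fell and 1 rose in EpCAM-negative depleted, 5 fell and 1 rose in EpCAM-positive depleted and 5 fell and 1 rose in EpCAM-negative control cells against culture, and 4 fell and 1 rose in EpCAM-positive control cells. Lbr, a sterol reductase that is also a lamina protein, averaged 77.9 ± 7.71 CPM in EpCAM-negative depleted, 83.7 ± 11.0 in EpCAM-positive depleted, 67.7 ± 13.5 in EpCAM-negative control and 57.0 ± 7.57 in EpCAM-positive control cells, and 218 in culture. Acat2, which joins acetyl-CoA units at the start of the route, averaged 23.2 ± 5.24, 44.2 ± 10.7, 23.1 ± 3.47 and 30.7 ± 4.35 CPM in the same groups and 106 in culture. Of the 12 isoprenoid branch genes, 4 to 6 fell and 1 or 2 rose against culture in the 4 groups. Fntb, a subunit of the enzyme that attaches farnesyl to proteins, rose in all 4, between 0.81 ± 0.17 and 1.26 ± 0.18.

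Of the 14 genes of sterol efflux, storage and oxysterol response, more rose than fell against culture in each tumour group. There 10 rose and 3 fell in EpCAM-negative depleted, 9 and 3 in EpCAM-positive depleted, 10 and 3 in EpCAM-negative control and 7 and 3 in EpCAM-positive control cells, where 21.8%, 20.9%, 26.5% and 27.8% of all features rose. The median change was 0.86, 0.61, 1.13 and 0.63 in the same order. Abca1, the cholesterol exporter and an LXR target, averaged 84.1 ± 34.6 CPM in EpCAM-negative depleted, 79.2 ± 17.4 in EpCAM-positive depleted, 209 ± 33.2 in EpCAM-negative control and 184 ± 15.2 in EpCAM-positive control cells (SD, n = 6 each), and 11.6 in culture. It rose by 2.85 ± 0.30, adjusted p = 3.04e-08 in EpCAM-negative depleted and 4.17 ± 0.33, adjusted p = 7.28e-11 in EpCAM-negative control cells. Lipa, the lysosomal enzyme that frees cholesterol from its esters, rose by 2.23 ± 0.14, 1.34 ± 0.13, 3.32 ± 0.15 and 2.11 ± 0.14 in the 4 groups. In depleted against control tumours 7 of the 14 fell and 1 rose in EpCAM-negative cells, and 6 fell and 2 rose in EpCAM-positive cells. In EpCAM-negative cells these included Nr1h3, which encodes LXR alpha (−1.96 ± 0.21, adjusted p = 2.58e-08), and Mylip, another LXR target (−1.69 ± 0.20, adjusted p = 1.42e-07). In EpCAM-positive cells they included Abca1 (−1.22 ± 0.18, adjusted p = 4.53e-06).

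Other genes of fatty acid metabolism were mixed. Of 21 tested genes of further fatty acid and triglyceride synthesis, 11, 9, 10 and 7 fell against culture in EpCAM-negative depleted, EpCAM-positive depleted, EpCAM-negative control and EpCAM-positive control cells, and 1, 1, 3 and 4 rose. Elovl7, an elongase, was lower in EpCAM-negative than EpCAM-positive cells in both treatments (−3.46 ± 0.28 in depleted and −2.92 ± 0.27 in control tumours). Acsl4, which activates polyunsaturated fatty acids, rose in depleted against control tumours, by 0.95 ± 0.12, adjusted p = 3.15e-07 in EpCAM-negative and 1.94 ± 0.12, adjusted p = 3.13e-12 in EpCAM-positive cells. Of 15 tested genes of uptake and oxidation, 7 or 8 rose and 2 or 3 fell against culture in each of the 4 groups. Acadm, a mitochondrial beta-oxidation enzyme, rose by 1.76 ± 0.14 in EpCAM-negative depleted, 1.58 ± 0.14 in EpCAM-positive depleted and 1.57 ± 0.14 in EpCAM-positive control cells. Fabp5, a fatty acid binding protein, fell in depleted against control tumours of both fractions (−1.82 ± 0.20 in the EpCAM-negative and −1.88 ± 0.20 in the EpCAM-positive one). Cpt1a, which admits fatty acids to mitochondria, was higher in EpCAM-negative than EpCAM-positive depleted cells (1.12 ± 0.16, adjusted p = 3.78e-06).

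Markers of proliferation and of other cells also differed between the groups. All 10 proliferation genes fell against culture in each of the 4 tumour groups, where 18.6% to 24.2% of all features fell. Their summed level averaged 478 CPM in EpCAM-negative depleted, 572 in EpCAM-positive depleted, 561 in EpCAM-negative control and 366 in EpCAM-positive control cells, and 2256 in culture. In control tumours 8 of the 10 were higher in EpCAM-negative cells, where 13.3% of all features and 9 sterol genes rose. In depleted tumours 3 were lower there, where 14.3% of all features fell. In depleted against control tumours 2 of the 10 were lower in EpCAM-negative cells, where 23.2% of all features, 11 fatty acid and 10 sterol genes fell. In EpCAM-positive cells 7 of the 10 were higher in depleted tumours, where 17.6% of all features rose. There 8 of 12 fatty acid genes fell and the sterol arm had 3 genes moving each way. The difference of the fraction changes was negative for 7 of the 10, where it was negative for 8.69% of all features. The summed level of 10 fibroblast markers ran from 149.7 to 201 CPM in EpCAM-negative depleted, 63.7 to 157 in EpCAM-positive depleted, 1272 to 4894 in EpCAM-negative control and 1199 to 3174 in EpCAM-positive control cells, and was 16.7 and 18.7 in culture, and the sort had removed cells with CD90. The summed level of 13 macrophage markers ran from 102 to 207 CPM in EpCAM-negative depleted and 142 to 192 in EpCAM-positive depleted cells. It ran from 55.9 to 76.4 in EpCAM-negative control and 121 to 265 in EpCAM-positive control cells, and was 69.1 and 70.8 in culture. These sums do not show the changes of most members, and 4 of the 13 had 0 counts in culture. Against culture, 7 rose and 1 fell in EpCAM-negative control cells, with a median change of 3.74, where 26.5% of all features rose. In depleted against control tumours 10 rose and 1 fell in EpCAM-negative cells (median 4.09, where 21.9% of all features rose). In EpCAM-positive cells 7 rose and 2 fell (median 1.63, where 17.6% of all features rose). Ptprc, which encodes CD45, averaged 4.84 ± 2.49 CPM in EpCAM-negative depleted, 4.43 ± 3.06 in EpCAM-positive depleted, 0.0567 ± 0.0941 in EpCAM-negative control and 0.764 ± 0.696 in EpCAM-positive control cells, and 0 in culture. The 8 endothelial markers together averaged 19.1, 41.1, 5.09 and 12.9 CPM in the tumour groups in the same order and 1.49 in culture. The higher sum in depleted than control EpCAM-positive cells did not hold for most of the 8, whose median change was −1.91. There Cdh5 rose (4.11 ± 0.69), and Pecam1 (−3.07 ± 0.58) and Eng (−1.35 ± 0.27) fell, where 17.6% of all features rose and 22.4% fell. The 9 epithelial markers together averaged 4233, 9748, 1224 and 4371 CPM in the same groups and 5712 in culture. Of 12 adipocyte markers 5 passed the filter on low counts, and the 12 together averaged 9.6 to 13.9 CPM per group, most of it Lipe. Adipoq had 0.0507 ± 0.111 CPM in EpCAM-negative control cells and 0 counts in every library of the other groups. Lpl averaged 0.573 ± 1.02 CPM in EpCAM-negative depleted, 0.645 ± 0.343 in EpCAM-positive depleted, 0.0273 ± 0.0668 in EpCAM-negative control and 0.417 ± 0.442 in EpCAM-positive control cells, and 0.0288 in culture. It was higher in depleted than control EpCAM-negative cells (4.08 ± 1.222, adjusted p = 0.0079) and lower in EpCAM-negative than EpCAM-positive control cells (−3.65 ± 1.20, adjusted p = 0.0246). Cd36 was also lower in the second of these contrasts (adjusted p = 0.0283), with 0 counts in every EpCAM-negative control library and 0.383 ± 0.585 CPM in EpCAM-positive control cells. Lipe fell against culture in EpCAM-negative control (−0.69 ± 0.23, adjusted p = 0.0128) and EpCAM-positive control cells (−0.60 ± 0.23, adjusted p = 0.0304). The part of all these markers in the results was not tested.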

How the data were processed

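RNA was amplified from sorted cells and sequenced as single reads of 50 cycles, per the labels' protocols. The authors deposited raw read counts per gene, made after alignment to mm9 with STAR, per the submitters' processing notes. Which counter, annotation and strand rule were used is not stated in the labels, and overlapping or antisense genes therefore cannot be told apart. A second deposited table of normalized values was not used. No column lacked a sample.

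Of 47729 Ensembl identifiers, 47224 matched a symbol. Counts were tested with edgeR 4.0.16 under R 4.3.3: TMM scaling, its filter on low counts by group (16637 features kept), 1 coefficient per group over all 26 libraries, the quasi-likelihood test and Benjamini-Hochberg adjustment at 0.05. The median biological coefficient of variation was 0.223. Standard errors were derived from the test statistic, and log2 CPM used a prior count of 2. The procedure was tested on simulated data. Groups come from the sample titles.

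The 31 genes and the related lists were chosen with earlier results of these data known. Any of the 31 may be named. Per comparison and arm, up to 3 called genes with the smallest p in each direction get full statistics, 9 genes (Srebf1, Srebf2, Insig1, Hmgcs1, Sqle, Fasn, Scd1, Scd2, Fads2) are given whether or not they passed, and other lists give up to 3 called genes. A gene's reads were called uncertain from the share of its 50-base windows, over GRCm38.p6 transcripts, found in another gene. Alternatives were other scalings, no filter, DESeq2 1.42.0, the compared groups alone, a replicate block and leaving out each library.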

Additional observations from a re-analysis of the deposited data

Results flagged for a closer look

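For 5 of 124 combinations of a gene and a tumour group, 1 library lay apart from the other 5 of its group by Dixon's criterion. Chance flags about 1 in 20 groups. Pmvk was at 21.0 CPM in EpCAM-negative depleted library 5, against 14.0 to 16.3 in the others. Dhcr7 was at 128 CPM in EpCAM-negative depleted library 4, against 78.8 to 96.3. In EpCAM-negative control library 1, Msmo1 was at 273 CPM, against 151 to 194, and Srebf2 at 247 CPM, against 177 to 193. Srebf2 was at 132 CPM in EpCAM-positive control library 6, against 167 to 187.

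For 10 of the 31 genes the change between the fractions differed between depleted and control tumours, where 18.0% of all features did. This is by the test of the difference itself, depleted minus control. The difference was −0.66 for Nsdhl, −0.78 for Sc5d, −0.94 for Fasn, −1.002 for Acaca, −0.58 for Acly, −0.53 for Scd2, −0.96 for Elovl6, −1.12 for Fads1 and −2.24 for Fads2, and 1.68 for Scd1. Depth does not overlap between the treatments, and the day of harvest cannot be told apart from depletion.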

How the results depend on the processing

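No value that passed changed direction under any of the alternatives run. Scaling by library totals alone moved the number of the 31 genes called between the fractions of control tumours from 12 to 7, and it moved the median change of all features from 0.03 to 0.22 in depleted against control EpCAM-negative cells, from −0.01 to −0.15 between the control fractions and from 0.05 to 0.22 in the difference of fraction changes. Against culture that median was −0.20 in place of 0.08 in EpCAM-negative control, −0.02 in place of 0.11 in EpCAM-positive depleted and 0.00 in place of 0.17 in EpCAM-positive control cells. Leaving out each of the 26 libraries gave 13 to 15 called genes between the fractions of depleted tumours, 7 to 13 between those of control tumours and 9 to 13 in the difference of the 2. It gave 21 to 22 in depleted against control EpCAM-negative and 15 to 18 in EpCAM-positive cells. Against culture it gave 27 to 28 in EpCAM-negative depleted, 25 to 27 in EpCAM-positive depleted, 18 to 24 in EpCAM-negative control and 22 to 26 in EpCAM-positive control cells. With 1 culture left out, the lone one is assumed to vary like the other groups. DESeq2 called 14 genes in the difference of fraction changes, in place of 10. Shares of all features called under the alternatives, the block included, are not given. The counts under the alternatives are therefore given here without a background.

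The labels do not say that a replicate number marks a tumour. Libraries of the 2 fractions with the same number correlated at 0.017 to 0.047 in depleted tumours, where 3 of 6 correlated best with their own number, and at 0.05 to 0.172 in control tumours, where 6 of 6 did. With a block on treatment and replicate number, fitted without the cultures, 16 genes were called between the fractions of depleted tumours (5 higher, 11 lower). That block called 16 between those of control tumours (14 and 2) and 15 in the difference (1 and 14). For the other comparisons the block was the replicate number alone, over all libraries. It tied libraries of different treatments and cultures that share a number, so it does not test pairing by tumour. With that block, 21 were called in depleted against control EpCAM-negative and 16 in EpCAM-positive cells. Against culture it called 28, 27, 22 and 25 in EpCAM-negative depleted, EpCAM-positive depleted, EpCAM-negative control and EpCAM-positive control cells.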
